A study of Homo sapiens with 5 samples.

Results

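SHOC1 and 9 genes that work beside it in meiotic recombination (MSH4, MSH5, HFM1, TEX11, SPO11, DMC1, SYCP1, SYCP2 and SYCP3) were followed in breast cancer cells given a histone deacetylase inhibitor. SHOC1 was chosen because it stood at rank 4 among the fold changes of these same arrays, and the 9 partners were chosen for their function, so the values of SHOC1 are a description and carry no test. The array annotation gave 18 probe sets (groups of probes read as 1 value) for the 10 genes, out of 54675 on the array. Of these, 17 belonged to 1 gene, and they covered SHOC1 and 8 of the partners among 19775 measured genes. The only probe set listed for MSH5 was shared with SAPCD1 and with the MSH5-SAPCD1 readthrough transcript.

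The tested cells were MDA-MB-231, a human breast cancer line, kept for 30 h in medium with 2 uM SAHA (suberoylanilide hydroxamic acid, vorinostat) and measured on 2 arrays. The control cells were the same line kept for 30 h with the vehicle DMSO and measured on 3 arrays. No genotype or transgene was given for either group, and the labels' extraction text names a transfection that no other label describes. Whether the arrays came from separate cultures was not stated, so p-values measure the spread between these arrays only, which may be technical.

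Meiotic recombination starts with double-strand breaks made by SPO11, and DMC1, a germ-line strand-exchange protein, pairs the broken end with the homologous chromosome. SHOC1 binds branched DNA and acts with MSH4, MSH5, the helicase HFM1 and the scaffold protein TEX11 to turn some of these contacts into crossovers. SYCP1, SYCP2 and SYCP3 build the synaptonemal complex that holds the paired chromosomes together. These genes are normally used in germ cells and are mostly silent in somatic tissue.

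SHOC1 is the member that stood apart, so its promoter is shown with those of 2 partners, SYCP3 and MSH4. The 250 bases before each gene's start are RefSeq sequences of GRCh38.p14. They were searched on both strands for CACGTG, an E-box that reads the same on both strands, and for TCCCGC, the core of E2F-type sites. Capitals mark the matches, and GCGGGA is TCCCGC read on the other strand. The SHOC1 promoter lies at chr9:111794938-111795187 on the minus strand, that of SYCP3 at chr12:101739463-101739712 on the minus strand, and that of MSH4 at chr1:75796632-75796881 on the plus strand.
SHOC1: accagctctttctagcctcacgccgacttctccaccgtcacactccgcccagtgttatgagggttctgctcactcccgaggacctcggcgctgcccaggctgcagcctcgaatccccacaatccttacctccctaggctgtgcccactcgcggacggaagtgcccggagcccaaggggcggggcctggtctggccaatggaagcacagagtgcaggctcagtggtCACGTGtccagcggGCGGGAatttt
SYCP3: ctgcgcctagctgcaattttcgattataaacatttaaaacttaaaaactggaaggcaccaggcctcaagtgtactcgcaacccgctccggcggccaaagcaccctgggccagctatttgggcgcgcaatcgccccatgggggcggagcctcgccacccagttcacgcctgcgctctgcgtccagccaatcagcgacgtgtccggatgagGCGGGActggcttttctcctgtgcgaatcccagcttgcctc
MSH4: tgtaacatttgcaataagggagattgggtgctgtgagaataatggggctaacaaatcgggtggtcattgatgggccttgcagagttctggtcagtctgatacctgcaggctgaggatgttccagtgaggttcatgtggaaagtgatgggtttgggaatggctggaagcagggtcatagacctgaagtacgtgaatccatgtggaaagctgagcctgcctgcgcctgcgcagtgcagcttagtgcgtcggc

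The SHOC1 promoter held 1 CACGTG, which began 25 bases before the gene's start, and 1 TCCCGC match nearer the start, with 8 bases between them. None of the 9 partner promoters held CACGTG, and 4 of the 9 held TCCCGC (MSH5, SPO11, SYCP2 and SYCP3). Across 27305 promoters of the same length, 6.49% held CACGTG, 23.5% held TCCCGC and 1.93% held both. The SHOC1 promoter had 16 CpG dinucleotides, against 6 to 33 in the partners and a median of 11 over all promoters. A match is a string of letters and was not tested as a binding site. Of 402 measured genes whose promoters held both strings, limma called 62 with higher and 101 with lower values in SAHA cells at adjusted p under 0.05, with a median log2 difference of -0.06. That is 40.5% called, against 29.6% of all genes (14.0% higher and 15.6% lower). These shares were not matched for level. Of genes at or above the 40th percentile of mean level 44.1% were called, and of those below it 7.79%. SHOC1 itself is among the 62.

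The markers of the labelled line were bright. The 6 measured MDA-MB-231 markers, among them vimentin (VIM), CD44 and the kinase AXL, ranged from 12.75 to 14.26 in SAHA cells and from 12.59 to 14.49 in DMSO cells on the log2 intensity scale, and 2 of them, AXL and S100A4, were called lower by limma. Of 9 luminal breast genes 0 were higher and 2 lower (ERBB2 and GATA3), with the keratins KRT8 and KRT18 bright at 12.15 to 13.81 in SAHA cells and 11.39 to 13.57 in DMSO cells. The hormone receptor genes ESR1 and PGR lay at 4.41 to 6.99 in SAHA cells and 4.47 to 7.04 in DMSO cells. Genes of spermatids, the haploid germ cells, gave 0 calls among 10 measured, with summed intensities of 627 and 651 on the SAHA arrays, against 638 to 670 on the DMSO arrays. Sertoli and Leydig cell genes gave 0 calls among 9, with sums of 4470 and 4150 in SAHA cells and 4130 to 4140 in DMSO cells, most of it from SOX9. By limma's unadjusted p under 0.05 the counts were 1 and 0. All spermatid genes but TSSK6, and all Sertoli and Leydig cell genes but SOX9 and GATA4, lay below the 40th percentile of mean level. There 7.79% of genes were called, so counts of 0 are close to what dim genes gave in general. Over all genes 14.0% were called higher and 15.6% lower. Median intensities ran from 88.8 to 91.2 over the 5 arrays. The 24 polyadenylated control probe sets, from RNA added during labelling, had a median log2 difference of 0.39 (SAHA minus DMSO). Centring the arrays on them lowers every log2 difference by the same amount and takes the median gene to -0.40, so each change here is relative to the other genes on the arrays. The first DMSO array stood apart in the 3' minus 5' difference of the actin control, at 3.29, against 2.16 and 2.04 on the SAHA arrays and 2.08 and 2.22 on the other DMSO arrays, and values without it are given where they matter.

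The brightest SHOC1 probe set, 233504_at, read 1620 and 1460 intensity units in SAHA cells, against 110, 102 and 87.3 in DMSO cells. Both SAHA arrays lay far above all 3 DMSO arrays. On the log2 scale it averaged 10.59 ± 0.11 (SD, n = 2) in SAHA cells and 6.63 ± 0.17 (SD, n = 3) in DMSO cells, a 15.5-fold difference. The log2 difference was 3.96, and 4.03 without the first DMSO array. The last gene inside the 10 highest folds was HSD3B1 at 12.1-fold, and the first outside was LOC101928505 at 11.6-fold.

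The other SHOC1 probe set did not share that difference. Probe set 1553920_at read 8.31 and 9.56 intensity units in SAHA cells, against 11.0, 11.1 and 9.28 in DMSO cells, so that the groups overlapped near the bottom of the scale. It averaged 3.16 ± 0.14 (SD, n = 2) in SAHA cells and 3.38 ± 0.15 (SD, n = 3) in DMSO cells, a log2 difference of -0.23. The annotation lists a RefSeq SHOC1 transcript as the source of this probe set and an expressed sequence tag as the source of the bright one. Averaging both gave a log2 difference of 1.86, so the size of the SHOC1 signal rests on 1 of its 2 probe sets. Where each set lies in the gene was not tested. Such a split was common. There were 59 genes with several probe sets that were called at least 4-fold higher. Of these, 23 (39.0%) had all their other probe sets under 2-fold in either direction.

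**Figure D1:**
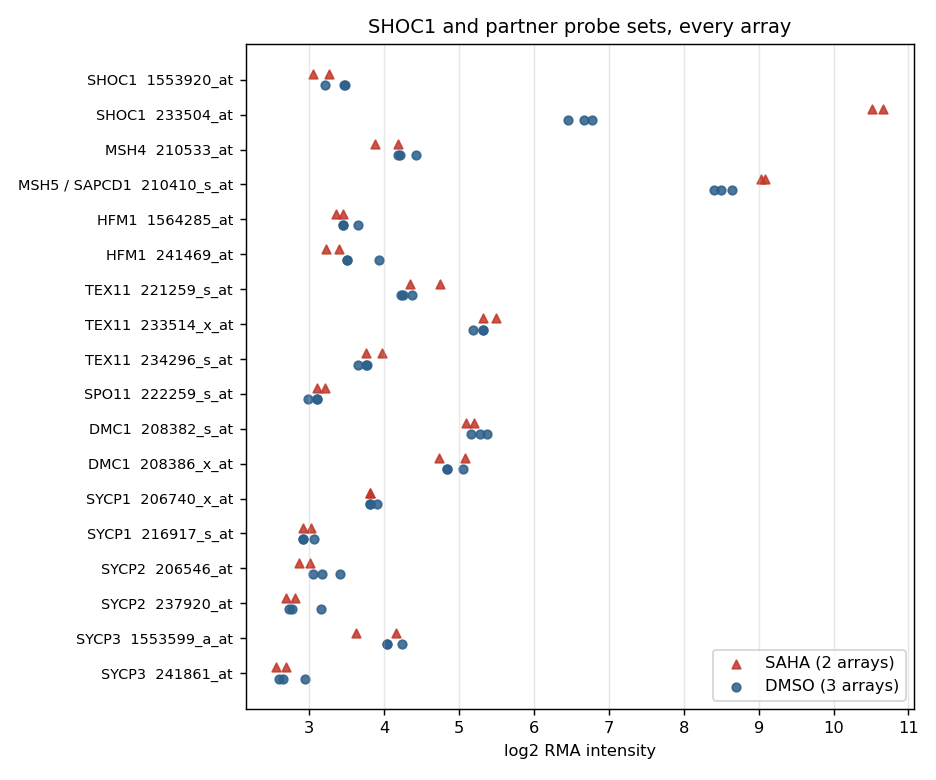
Log2 RMA intensity (horizontal axis) of the 18 probe sets listed for SHOC1 and its partners, with a triangle for each of the 2 SAHA arrays and a circle for each of the 3 DMSO arrays; values are to be compared within a row. SHOC1 233504_at lies at 10.51 and 10.66 in SAHA cells and 6.45 to 6.78 in DMSO cells, and the 15 one-gene partner probe sets lie between 2.55 and 5.49 on all arrays.

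No change was detected in the 8 meiotic partners with one-gene probe sets, all of which read at dim levels. In limma's fit over 19775 genes, 0 of the 8 measured partners were called higher and 0 lower at a Benjamini-Hochberg adjusted p under 0.05, and 0 passed an unadjusted p under 0.05. Over all genes 29.6% were called, but all 8 partners lay below the 40th percentile of mean level, where 7.79% of genes were called (44.1% at or above it), so a count of 0 among 8 is close to what dim genes gave in general. The flat SHOC1 probe set read at a like level, and a flat value there does not show that a gene was unchanged. Their log2 differences ran from -0.34 to 0.13, with a median of -0.17 against -0.03 over all genes. The widest 95% intervals reached from -0.76 to 0.33. The first DMSO array made no difference to this count, which was also 0 and 0 without it. With arrays centred on the polyadenylated controls 7 of the 8 were called lower, in a setting where 14740 of all genes were.

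SPO11, the protein that cuts DNA to start recombination, had values of 3.11 and 3.20 in SAHA cells, against 3.11, 2.98 and 3.11 in DMSO cells on the log2 scale. The groups touched, and the log2 difference was 0.09 ± 0.06 (SE; limma adjusted p = 0.362). DMC1, the strand-exchange protein, had values of 5.09 and 5.20 in SAHA cells, against 5.16, 5.38 and 5.28 in DMSO cells. The groups overlapped, with a difference of -0.13 ± 0.08 (SE; limma adjusted p = 0.324). Its second probe set gave a log2 difference of -0.00.

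Among the partners in crossover formation, MSH4 had log2 values of 3.87 and 4.18 in SAHA cells, against 4.21, 4.18 and 4.42 in DMSO cells. One SAHA array equalled the lowest DMSO array, and the difference was -0.24 ± 0.13 (SE; limma adjusted p = 0.252). HFM1 had values of 3.22 and 3.39 in SAHA cells, against 3.50, 3.50 and 3.93 in DMSO cells. Here both SAHA arrays lay below all DMSO arrays, yet the difference of -0.34 ± 0.16 (SE) did not pass (limma adjusted p = 0.214). TEX11, the X-linked scaffold, had values of 5.32 and 5.49 in SAHA cells, against 5.32, 5.32 and 5.19 in DMSO cells. The groups touched, with a difference of 0.13 ± 0.08 (SE; limma adjusted p = 0.301), and its other 2 probe sets gave 0.27 and 0.14.

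The probe set that MSH5, a partner of MSH4 in a DNA clamp, shares with SAPCD1 cannot be assigned to either gene. It had log2 values of 9.09 and 9.03 in SAHA cells, against 8.64, 8.41 and 8.49 in DMSO cells. Both SAHA arrays lay above all DMSO arrays, and in a fit over all 54613 probe sets other than controls, of which 18.1% were called, the difference was 0.55 ± 0.08 (SE; limma adjusted p = 0.0168). The call ended when the second DMSO array, the third DMSO array or either SAHA array was left out (limma adjusted p = 0.056, 0.0881, 0.116 and 0.0831), with log2 differences of 0.49 to 0.58 in those fits. It also ended with centring on the polyadenylated controls (0.17; limma adjusted p = 0.215).

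Of the synaptonemal complex proteins, SYCP1, which spans the space between paired chromosomes, had a log2 value of 3.81 on both SAHA arrays, against 3.90, 3.81 and 3.81 on the DMSO arrays. Identical values on several arrays are frequent at the dim end of these normalized data, and 5 of the 8 partners had them within a group. SYCP2, of the lateral element, had values of 3.01 and 2.86 in SAHA cells, against 3.05, 3.17 and 3.41 in DMSO cells. Both SAHA arrays were below all DMSO arrays, with a difference of -0.28 ± 0.12 (SE; limma adjusted p = 0.183), the lowest adjusted p among the partners. SYCP3, also of the lateral element, had values of 4.16 and 3.62 in SAHA cells, against 4.03, 4.24 and 4.03 in DMSO cells. One SAHA array lay within the DMSO range and the other below it, and the difference was -0.21 ± 0.18 (SE; limma adjusted p = 0.447). HFM1 and SYCP2 were thus the 2 of 8 partners whose groups did not overlap, an arrangement found for 48.1% of all genes.

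Taking every one-gene partner probe set rather than the brightest gave the same count. None of the 15 one-gene partner probe sets was called in limma's fit over 41091 probe sets, of which 22.1% were called, and 0 had an unadjusted p under 0.05. Their log2 differences ran from -0.34 to 0.27, with adjusted p of 0.218 to 0.998. No detection calls were used here, so whether the dim partners gave any signal above background is unknown. These are bulk RNA measurements, in which a change in few cells and a change in RNA per cell cannot be told apart.

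**Figure D2:**
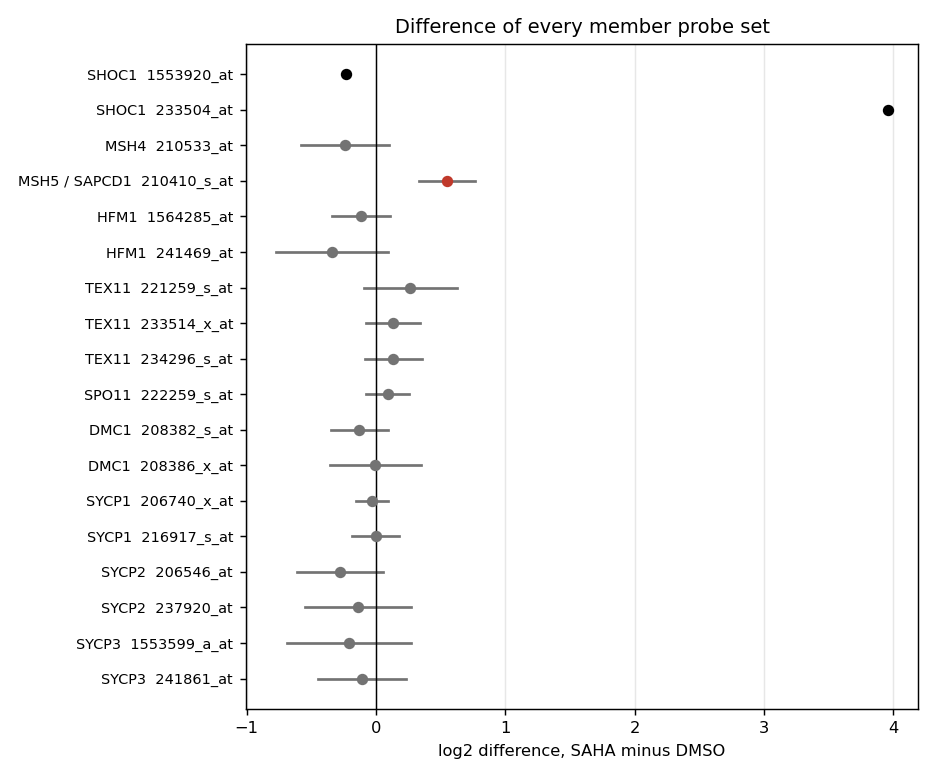
Log2 difference (SAHA minus DMSO, horizontal axis) of each member probe set, with 95% limma intervals as lines for all but the SHOC1 probe sets. SHOC1 was chosen on this contrast by its brighter probe set, so neither of its probe sets carries an interval. The 15 one-gene partner probe sets (grey) lie between -0.34 and 0.27, the probe set shared by MSH5 and SAPCD1 (red) passed the test at 0.55, and the SHOC1 probe sets (black) lie at -0.23 and 3.96.

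Other genes of the meiotic pathway moved mostly downward where they moved at all. Over 5 lists and the partners, each gene counted once and SHOC1 left out, 52 genes were measured, and limma called 1 higher and 9 lower. That is 19.2% called, against 29.6% of all genes. Only 19 of the 52 lay at or above the 40th percentile of level, where 44.1% of genes were called, and the others lay below it, where 7.79% were, so the share is not low for genes of these levels. Without the first DMSO array the counts were also 1 and 9. Without the second SAHA array they were 3 and 10, and with centring on the polyadenylated controls 43 were lower. Genes of break formation had 0 higher and 2 lower of 9, against 1 lower without either SAHA array and 1 higher without the second. HELLS, a chromatin remodeller that human cells also use outside meiosis, fell to 9.004 and 8.79 in SAHA cells, against 10.11, 9.85 and 9.89 in DMSO cells on the log2 scale (-1.05 ± 0.11, SE; limma adjusted p = 0.00353). With its probe sets averaged the difference was -0.44. ZCWPW1, a histone reader that follows PRDM9 in the mouse, fell by 0.60 on the log2 scale and lost its call without either SAHA array (limma adjusted p = 0.0722 and 0.0696).

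In the strand-exchange list, 1 of 10 measured genes was higher and 3 were lower. Of the 10, 7 lay at or above the 40th percentile of level, where 44.1% of genes were called in either direction. MND1 and PSMC3IP, whose products form the complex that helps DMC1, fell together. MND1 had log2 values of 8.80 and 8.75 in SAHA cells, against 10.26, 10.06 and 10.15 in DMSO cells (-1.38 ± 0.07, SE; limma adjusted p = 0.000735). PSMC3IP had 9.13 and 9.15 in SAHA cells, against 9.99, 9.91 and 10.05 in DMSO cells (-0.84 ± 0.05, SE; limma adjusted p = 0.00112). The groups were well apart for both genes. RAD54B, a translocase of recombination, fell by 0.79. SFR1, a recombination accessory factor, was the 1 gene of the list called higher, with 11.01 and 10.92 in SAHA cells, against 10.40, 10.15 and 10.08 in DMSO cells (0.75 ± 0.11, SE; limma adjusted p = 0.00852). SWI5, its binding partner, gave 0.31 with no overlap between the groups (limma adjusted p = 0.0717). The higher count was 2 with arrays centred on ribosomal protein genes and without dim genes. RAD54B (limma adjusted p = 0.0702 and 0.0788) and SFR1 (0.0859 and 0.0629) lost their calls without either the first or the second SAHA array.

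The crossover list had 0 higher and 3 lower of 10 measured genes besides SHOC1. Over all genes 14.0% were called higher and 15.6% lower. Only 3 of the 10 lay at or above the 40th percentile of level, where 44.1% of genes were called, and below it 7.79% were. The nuclease EXO1 fell to 8.22 and 7.82 in SAHA cells, against 9.05, 8.93 and 9.18 in DMSO cells (-1.03 ± 0.15, SE; limma adjusted p = 0.0082). MLH3, the mismatch repair protein that resolves crossovers, fell by 0.93 on the log2 scale. PRR19, a crossover factor described in the mouse, fell by 0.91 (limma adjusted p = 0.00355). Without the first SAHA array 1 gene of this list was called higher.

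The synaptonemal complex and axis list had 0 higher and 1 lower of 16. Only 4 of the 16 lay at or above the 40th percentile of level, where 44.1% of genes were called. Below it 7.79% were called, so this count is not low for genes of these levels. TRIP13, an ATPase that remodels HORMA proteins in meiosis and at the mitotic spindle checkpoint, had values of 9.40 and 9.33 in SAHA cells, against 10.71, 10.85 and 10.88 in DMSO cells (-1.45 ± 0.07, SE; limma adjusted p = 0.000664). Without the second SAHA array 4 genes of this list were lower. Genes of meiotic entry and telomere attachment gave 0 calls among 7 by limma (1 at an unadjusted p under 0.05), with KASH5 at -0.30 and SPDYA at -0.27 the furthest from 0. Only 1 of the 7 lay at or above the 40th percentile of level, so a count of 0 is close to what dim genes gave in general. Without the second SAHA array 1 gene of this list was called higher.

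Most mitotic counterparts of these genes were lower in the same cells. Of 9 measured, 0 were higher and 7 lower by limma, with a median log2 difference of -0.63. All 9 lay at or above the 40th percentile of level, where 44.1% of genes were called, and 15.6% of all genes were called lower. The cohesin subunit RAD21 (0.09; limma adjusted p = 0.801) and the topoisomerase TOP2B (-0.24; limma adjusted p = 0.0937) did not pass. RAD54L (-1.62 ± 0.11, SE), the cohesin subunits STAG1 (-1.22 ± 0.06, SE) and SMC1A (-1.07 ± 0.10, SE), and the mismatch repair gene MSH3 (-1.02 ± 0.08, SE) were among them. MSH3 gave -0.03 without probe sets that share sequence, and SMC1A gave -0.38 with its probe sets averaged. The difference between these genes and the meiotic ones was not tested.

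Germ-line genes outside recombination gave 1 higher and 1 lower of 16 measured. Only 2 of the 16 lay at or above the 40th percentile of level. Below it 7.79% of genes were called, against 29.6% of all genes. The gene called higher, TDRD6, lay below it, and without dim genes the higher count was 0. TDRD6, a Tudor protein of mouse spermatid RNA granules, had log2 values of 7.31 and 7.15 in SAHA cells, against 5.85, 5.57 and 5.37 in DMSO cells (1.63 ± 0.16, SE; limma adjusted p = 0.00281). PIWIL4, a piRNA-binding protein, fell by 0.68, and 2 genes were lower without the first SAHA array. Subunits of the E2F6 and PRC1.6 repressor, which silences meiotic genes in mouse embryonic stem cells, moved in both directions, with 3 of 11 higher and 6 lower, or 0 and 8 with centring on the polyadenylated controls. All 11 lay at or above the 40th percentile of level, where 44.1% of genes were called in either direction. In the main fit E2F6 itself (-0.05; limma adjusted p = 0.791) and CBX3 (-0.04; limma adjusted p = 0.779) were not called. TFDP1 (-1.29 ± 0.05, SE), PCGF6 (-0.84 ± 0.07, SE) and WDR5 (-0.63 ± 0.07, SE) fell and RING1 (0.59 ± 0.05, SE) rose, with limma adjusted p of 0.000518 to 0.00433. Without probe sets that share sequence, 1 of this list was higher and 2 lower, and WDR5 was not called (limma adjusted p = 0.0786).

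**Figure D3:**
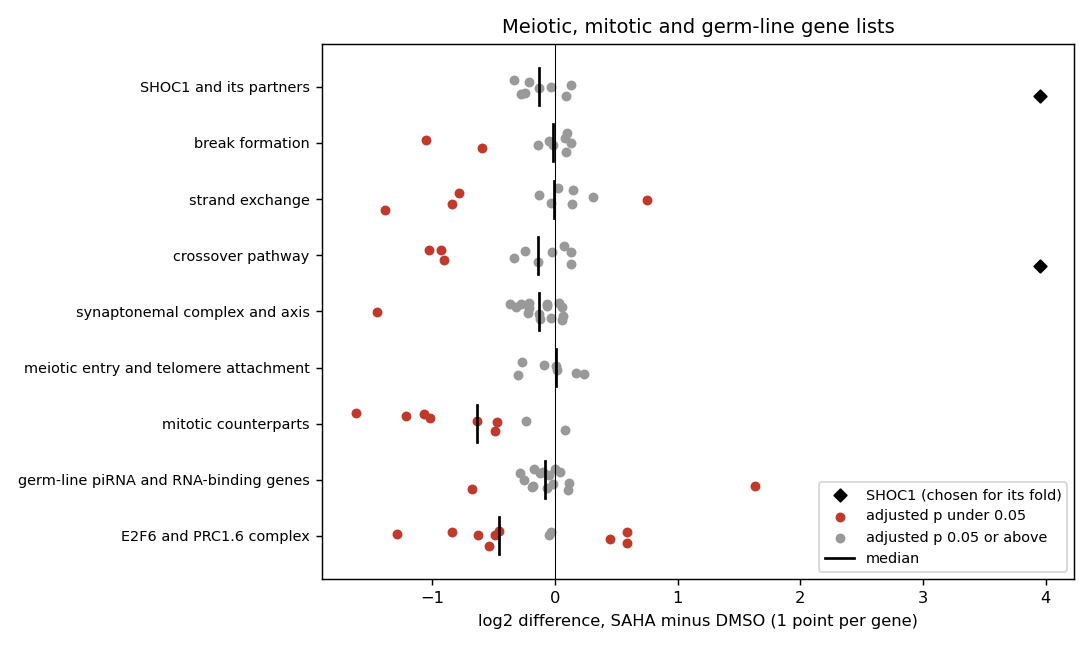
Log2 difference (SAHA minus DMSO, horizontal axis) of each measured gene of the meiotic, mitotic and germ-line lists, 1 point per gene, with list medians as black bars. Red points passed limma's adjusted p under 0.05, grey points did not, and the black diamonds at 3.96 are SHOC1, which stands in 2 lists; red points lie mostly below 0, the highest above 0 being TDRD6 at 1.63.

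Measured genes beside SHOC1 on chromosome 9, in the gene order of GRCh38.p14, were also compared. Of the 3 nearest on each side, 3 of 6 were called higher and 0 lower by limma. Over all genes 14.0% were called higher, but that share was not matched for level. All of the 6 but LRRC37A5P lay at or above the 40th percentile of level, where 44.1% of genes were called in either direction. UGCG, the enzyme that makes glucosylceramide and the nearest measured gene beyond the SHOC1 start, had log2 values of 13.60 and 13.51 in SAHA cells, against 12.19, 12.32 and 12.32 in DMSO cells (1.28 ± 0.06, SE; limma adjusted p = 0.000724). PTGR1, a prostaglandin reductase, had 12.34 and 12.46 in SAHA cells, against 11.49, 11.36 and 11.43 in DMSO cells (0.98 ± 0.06, SE; limma adjusted p = 0.00112). PTBP3, an RNA-binding protein, rose by 0.40 and lost its call without either SAHA array (limma adjusted p = 0.0867 and 0.061) or with its probe sets averaged (0.107). GNG10, a G protein subunit and the nearest gene on the other side, gave 0.42 ± 0.14 (SE; limma adjusted p = 0.0912) and was called with arrays centred on ribosomal protein genes (0.0314) and without dim genes (0.0389). LRRC37A5P (0.02) and SUSD1 (0.12) lay near 0.

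Measured genes next to the partners did not show this. Of 18 such neighbours, 1 on each side of each partner, 0 were higher and 5 lower by limma, with a median log2 difference of -0.08. Over all genes 15.6% were called lower, a share not matched for level. ASB17, VWA7, DLG3-AS1, SLC7A3, TSHB and PHACTR3 lay below the 40th percentile of level, where 7.79% of genes were called. The 5 called lower all lay at or above the 40th percentile of level, where 44.1% of genes were called in either direction. Among these FAM217B beside SYCP2 fell by 1.46, and ZNF644 beside HFM1, DDX17 beside DMC1, CLIC1 beside MSH5 and CHPT1 beside SYCP3 fell by 0.60, 0.46, 0.45 and 0.24 on the log2 scale. The lower count was 3 without the second DMSO array and 3 without the third DMSO array. Without the second SAHA array 2 were higher. The 2 sets of neighbours were not matched for level, and the difference between them was not tested.

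**Figure D4:**
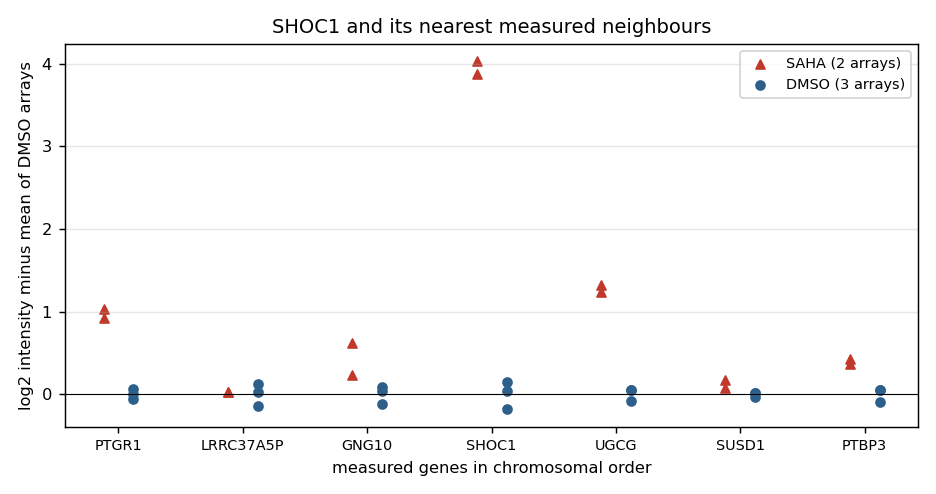
Log2 intensity minus the gene's own DMSO mean (vertical axis) for SHOC1 and the 3 nearest measured genes on each side, in chromosomal order, with a triangle for each of the 2 SAHA arrays and a circle for each of the 3 DMSO arrays. SHOC1 has the highest difference at 3.96, UGCG and PTGR1 follow at 1.28 and 0.98, and LRRC37A5P and SUSD1 lie at 0.02 and 0.12.

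The genes whose pattern over the 5 arrays lay nearest to that of SHOC1 were DHRS2, C1orf116, IL24, FABP4 and INHBA. Likeness was the Euclidean distance over 5 arrays after each gene was centred on its DMSO mean, and it was 0.27, 0.39, 0.45, 0.53 and 0.61 in that order on the log2 scale. DHRS2, a short-chain dehydrogenase and the nearest, had log2 values of 11.14 and 11.19 in SAHA cells, against 7.41, 7.02 and 7.08 in DMSO cells. All 5 were among the 10 highest folds with SHOC1, so the measure mainly ranks genes by the size of the difference.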

How the data were processed

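The deposited table holds intensity values on a linear scale for 54675 probe sets on 5 arrays, 2 of SAHA and 3 of DMSO, made by the authors with RMA in R 2.12 per the submitters' processing notes. RMA corrects background, equalises the arrays' distributions and summarises probes, so a shift of all transcripts one way is removed. The design had allowed for linear values, and log2 was taken first. Probe sets were named through the platform annotation, and current symbols were found by gene identifier for 41037 of the 41091 one-gene probe sets. The 62 controls, the 1801 with several genes and the 11721 with none given were left out of gene fits. The probe set with the highest mean stood for its gene.

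SAHA was compared with DMSO in limma 3.58.1 (R 4.3.3; lmFit and eBayes, two-sided, no covariates) over all 19775 genes, or all 41091 probe sets, with Benjamini-Hochberg adjustment. The fit had 3 residual and 1.62 prior degrees of freedom, and the number of arrays limits the precision. The function was checked on simulated arrays with known changes. Members, lists, tests and the rule for named genes were chosen with earlier results of these data known. The rule named every member, up to 4 called genes of each list (or the 2 furthest from 0), 5 genes by pattern and the nearest measured neighbours. Of 62 meiotic genes, 53 were measured, and the others were not analysed here. The main fit used no pairing of samples, and the replicate number was tried as a block. Alternatives changed the scaling, the filter on dim genes, how a gene's probe sets were combined, the moderation of variances, the weight of each array, the threshold and which arrays entered. The fit over all probe sets and leaving out genes with equal values were added after the data were seen. Figures were drawn with matplotlib 3.10.9.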

Additional observations from a re-analysis of the deposited data

How the results depend on the processing

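With 2 and 3 arrays the fits have few degrees of freedom, and signal over background is unknown for the dim partners. Centring on the 24 polyadenylated control probe sets, which were 0.39 higher in SAHA cells, moved the median of all genes by over 0.1, from -0.03 to -0.40 on the log2 scale. There 1380 genes were higher and 14740 lower, 7 partners, 12 partner probe sets and 43 genes of the meiotic lists were lower, and SHOC1 gave 3.58. Relative to the median gene these differences are as before. At a threshold of 0.01 the counts over all genes were 1544 and 1773. With the replicate number as a replicate block they were 1262 and 1316, with 0 partners called, 4 mitotic counterparts lower in place of 7 and the probe set of MSH5 and SAPCD1 not called (limma adjusted p = 0.111). With that block PRR19 (0.0578), PTBP3 (0.0946) and 4 of the 5 lower neighbours of the partners, ZNF644 (0.102), DDX17 (0.0782), CLIC1 (0.0689) and CHPT1 (0.132), were not called either. Deviations of same-numbered arrays from their group means correlated across genes at r = 0.15 for number 1 and r = -0.07 for number 2. With 2 SAHA arrays these deviations mirror each other (r = -1), so the values cannot decide whether the numbers pair the arrays. When the arrays were dropped one by one, 1769 to 2234 genes were higher and 1985 to 2797 lower, the partner counts were 0 in every such fit, 1 to 3 meiotic genes were higher and 7 to 10 lower, and SHOC1 gave 3.86 to 4.03. SHOC1 gave 1.86 with its probe sets averaged. The higher count of the meiotic lists was 2 when arrays were centred on ribosomal protein genes, without dim genes and, in a setting chosen after seeing the data, without genes with equal values, where GNG10 was also called (limma adjusted p = 0.0147). No partner could be fitted without dim genes. The causes of these changes were not tested.

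Differences of members near 0 changed sign in some settings without being called, except SPO11 and the 2 neighbours named next. With centring on the polyadenylated controls TEX11 gave -0.24, -0.11 and -0.24 by its 3 probe sets, SPO11 -0.28 (limma adjusted p = 0.0303) and the neighbours LRRC37A5P -0.35 (limma adjusted p = 0.00967) and SUSD1 -0.25 (limma adjusted p = 0.0468). SYCP3 gave 0.057 without the second SAHA array (-0.48 without the first), and its other probe set gave 0.0011 with the replicate block and without the third DMSO array (-0.18 without the second). The dimmer DMC1 probe set gave 0.011 with quantile normalization run again, 0.0057 with ribosomal centring, 0.014 with array weights, 0.065 without the first DMSO array and 0.17 without the second SAHA array (-0.18 without the first). The dimmer SYCP1 probe set gave 0.026 with quantile normalization, 0.0085 with ribosomal centring, 0.047 with the replicate block and without the third DMSO array, and 0.045 without the second SAHA array (-0.049 without the first). LRRC37A5P gave -0.036 with probe sets averaged, -0.091 without shared-sequence probe sets and -0.051 without the second DMSO array (0.079 without the first).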
